A study of Mus musculus with 8 samples.

Results

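Transcripts of the complement system were examined in mouse liver lacking hepatocyte STAT3 after alcohol. The 33 genes were taken as the rows of the deposited count table whose symbol was that of a complement component, receptor or regulator, out of 22183 genes in the table, and each symbol had 1 row. Of the 33, 31 passed the filter on low counts and were tested, and Cfd and C5ar1 did not. The tested mice carried Stat3flox/flox;Alb-Cre (knockout, 4 libraries) and were set against Stat3flox/flox mice, with floxed Stat3 but no Cre (control, 4 libraries). Both genotypes received 20% edible alcohol once a day over 2 weeks, gavaged at 15 µL/g, so that genotype under alcohol was the single contrast, with no unexposed group. Alb-Cre places Cre recombinase under the albumin promoter, which is active in hepatocytes, and other liver cells keep Stat3. The labels give neither sex nor age, and do not say that the numbered samples of a genotype came from separate animals. The p-values therefore measure only the spread between these samples.

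Complement is a cascade of plasma proteins that tags and lyses targets. The classical pathway starts with C1 bound to antibody, the lectin pathway with mannose-binding lectins, collectins and ficolins that carry MASP proteases, and the alternative pathway with factor B and C3. All converge on cleavage of C3 and then C5, after which C6 to C9 build the membrane attack complex. Hepatocytes secrete most of these proteins, and several are acute-phase products that interleukin-6 induces through STAT3.

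The 8 libraries held 15998391 to 19474696 counts each. Stat3 was at 27.3, 25.1, 29.7 and 28.4 CPM (counts scaled to a common library total after TMM normalisation) in knockouts 1 to 4, against 75.1, 72.9, 46.8 and 72.1 CPM in controls 1 to 4 (log2 fold change −1.27, SE 0.17, edgeR quasi-likelihood adjusted p = 0.0469), in counts that do not separate the floxed exons. Libraries differed in sex-linked transcripts: 4 Y-linked genes together held 728 to 934 counts in knockouts 2 to 4 and 2 in knockout 1, against 294 and 1672 counts in controls 4 and 3 and 1 to 5 in controls 1 and 2. Libraries with more than 10 such counts are called Y-positive below, and in a bulk tissue this divides libraries in a way the labels do not. Hepatocyte identity was clear in every library, with 8 markers summing to 104185 to 158392 CPM in knockout and 115509 to 342693 CPM in control. Most of the sum was Alb, at 80680 to 134877 CPM in knockout and 90662 to 320156 CPM in control. Of the 8 markers, Hnf4a was lower (−0.43) and Ttr higher (0.65) at an unadjusted p under 0.05 in edgeR, against 8.47% and 5.55% of all genes. Control 2 stood apart in albumin (27.3% of all counts there, and 7.46 to 13.8% elsewhere). Control 3 stood apart in Kupffer cell and macrophage markers, and the 11 markers summed to 80.1 to 125 CPM in knockout, against 45.7 CPM in control 3 and 347 to 615 CPM in the other controls, none of them at 0. Markers of other cell types also differed: 6 B lineage genes summed to 80.6 to 631 CPM in knockout, against 12.4 to 25.3 CPM in control (1 gene at 0 in 1 library of each group). The 8 stellate cell genes summed to 304 to 460.0 CPM, against 221 to 348 CPM, with 4 of the 8 higher at an unadjusted p under 0.05 in edgeR, against 5.55% of all genes. Of the 8, 2 had a log2 fold change below 0 (Hgf −0.64 and Rgs5 −0.23). Dcn alone held 144 to 270 CPM of the sum in knockout and 121 to 189 CPM in control. The part of all these markers in the results was not tested.

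Complement mRNA was lower in the knockout livers as a whole. The 33 genes together took 10668 to 11134 CPM in the knockout libraries and 14076 to 18082 CPM in the control libraries, and without C3 6883 to 8012 CPM and 9564 to 11002 CPM. Of the 31 tested genes, 0 passed at an adjusted p under 0.05 (edgeR, quasi-likelihood, over 11692 genes), where 0.0342% of all genes passed. At an unadjusted p under 0.05, 8 were lower and 1 was higher, or 25.8% and 3.23% of the 31, against 8.47% of all genes tested lower and 5.55% higher. The groups did not overlap in 7 genes that were lower and 1 that was higher, against 3.86% and 3.22% of all genes. A log2 fold change below 0 was found for 22 of the 31, against 53.2% of all genes. The median log2 fold change was −0.26 over the 31 genes and −0.03 over all genes tested. Hc had the smallest p of these 31 genes and ranked 18 of the 11692 genes by p. DESeq2 called 5 of the 33 genes lower (C4b, C3, Hc, C8a and Serping1) against 1.01% of all genes called lower. Without control 3, edgeR called 4 (C4b, C3, Cfp and Hc), all lower, against 2.23% of all genes called lower. With a term for Y-linked reads it called Hc alone, against 0.128% of all genes called lower, and 3 genes were higher at an unadjusted p under 0.05, against 5.6%, while in DESeq2 2 were, against 5.34%.

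**Figure D1:**
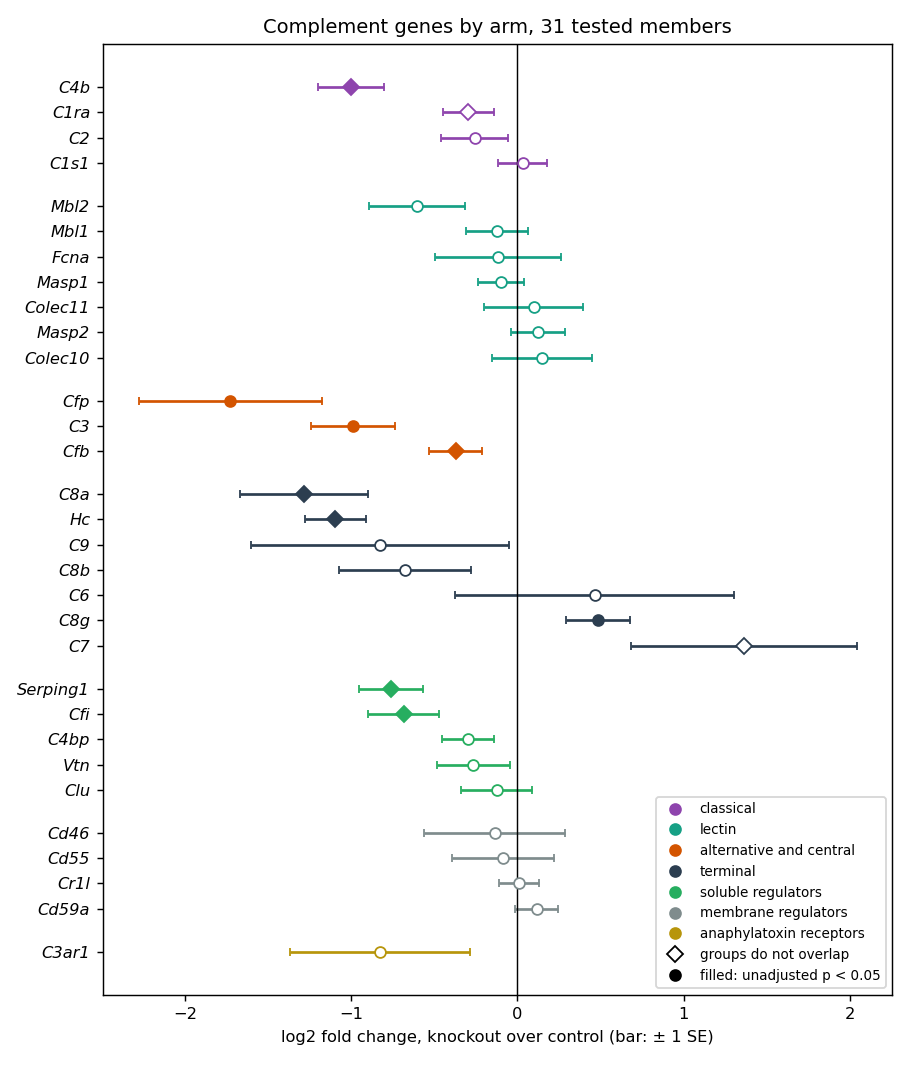
Log2 fold change of knockout over control with 1 SE (horizontal axis) for the 31 tested complement genes, grouped and coloured by arm down the page (n = 4 libraries each). Filled symbols have an unadjusted p under 0.05 and diamonds mark genes whose groups do not overlap: C3, C4b, Hc and C8a lie near −1 or beyond it, while the lectin and membrane regulator genes lie around 0 apart from Mbl2 at −0.60.

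The arms differed in how many genes were lower, a comparison given as counts with no test of the difference between arms. Of all genes tested, 8.47% were lower and 5.55% higher at an unadjusted p under 0.05 in edgeR. The alternative arm with C3 had 3 of 3 tested genes lower at an unadjusted p under 0.05 and a median log2 fold change of −0.99, and its genes summed to 3583 to 5117 CPM in knockout, against 5056 to 9575 CPM in control. The terminal arm had 2 of 7 genes lower and 1 higher, a median of −0.68, and sums of 789 to 1272 CPM in knockout, against 1301 to 2308 CPM in control. The soluble regulators had 2 of 5 lower (median −0.30), the classical arm 1 of 4 (−0.27), the lectin arm 0 of 7 (−0.10), the membrane regulators 0 of 4 (−0.04) and the 1 receptor tested 0 (−0.83). The alternative arm had 2 of 3 lower in limma-voom, with the replicate number as a block, with any 1 knockout left out, and without control 2 or control 4. Of all genes, 6.47% were lower in limma-voom, 8.19% with the block and 5.2% to 10.4% with 1 knockout left out. Without control 2 the share was 6.76%, and without control 4 it was 8.76%. With all libraries, Cfb alone of the 3 had groups that did not overlap. The median of this arm was the value of C3. With no filter on low counts Cfd was tested too, and 2 of 4 genes were lower and 1 higher (median −0.68). In DESeq2 3 of 4 were lower and 1 higher (median −0.67). Of all genes, 7.12% were lower and 5.35% higher with no filter, and 6.42% and 5.34% in DESeq2. The terminal median depended on the settings, at −0.05 in limma-voom, −0.40 without control 3, −0.44 without knockout 1 and −0.98 with a term for Y-linked reads. The lectin and membrane regulator medians lay on the other side of 0 in limma-voom, at 0.13 and 0.06. So they did with the replicate block (0.11 and 0.02), the term for Y-linked reads (0.07 and 0.05) and without controls 2 and 3 (0.07 and 0.06). The lectin median alone did so without control 2 (0.08). The membrane regulator median alone did so without knockout 3 (0.05), control 1 (0.06) or control 3 (0.06).

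Levels per kilobase of merged exons allowed genes to be compared. Vtn and C3 stood at the top, with 747 ± 102 and 641 ± 130 CPM per kb in knockout (SD, n = 4), against 898 ± 225 and 1271 ± 358 CPM per kb in control, and C3 ranked 2 in knockout and 1 in control. Mbl2, Cfb and Cfi held ranks 3 to 5 in both groups. C8g ranked 7 in knockout and 11 in control, and C8a ranked 15 in knockout and 9 in control. Neighbouring genes in this order mostly differed by less than their SD, as did C8a (139 ± 36.3 CPM per kb), C4b (138 ± 32.5) and C8g (136 ± 34.0) in control. C7, Cd46, C3ar1, C5ar1 and Cfd lay under 1 CPM per kb in both groups.

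Promoters of Hc, C3 and C8a are given because these had the smallest p among the lower genes that could be matched. The sequences run over 250 bases up to the base before the transcription start in RefSeq annotation (GRCm38.p6). Of the 33 genes, 25 were matched in the promoter table. Capitals mark TTCNNNGAA (the STAT motif), CTGGGA (an interleukin-6 response element core), TTNNGCAA (C/EBP-like) or an NF-kappaB-like motif, on either strand, so that a match on the other strand appears as its reverse complement. All 3 genes lie on the minus strand, at chr2:35061413-35061662 for Hc, chr17:57228137-57228386 for C3 and chr4:104876399-104876648 for C8a.
Hc: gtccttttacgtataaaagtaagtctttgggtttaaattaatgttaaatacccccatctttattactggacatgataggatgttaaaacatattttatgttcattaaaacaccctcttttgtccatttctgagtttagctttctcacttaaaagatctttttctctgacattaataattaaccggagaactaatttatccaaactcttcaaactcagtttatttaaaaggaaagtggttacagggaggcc
C3: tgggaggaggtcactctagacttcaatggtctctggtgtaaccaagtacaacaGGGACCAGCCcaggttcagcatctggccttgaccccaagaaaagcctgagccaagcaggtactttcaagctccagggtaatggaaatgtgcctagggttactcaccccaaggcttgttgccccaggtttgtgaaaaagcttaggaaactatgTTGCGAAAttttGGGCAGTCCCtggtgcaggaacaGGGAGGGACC
C8a: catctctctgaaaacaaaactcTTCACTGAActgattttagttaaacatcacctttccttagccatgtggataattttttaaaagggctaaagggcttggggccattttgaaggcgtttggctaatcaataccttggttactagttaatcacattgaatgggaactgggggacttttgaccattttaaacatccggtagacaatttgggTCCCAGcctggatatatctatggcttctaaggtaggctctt
None of the 4 motifs was found in the Hc window. C3 held 1 C/EBP-like match and 3 NF-kappaB-like matches, while C8a held 1 STAT match and 1 CTGGGA match. The STAT motif occurred in 4 of 25 complement promoters (16%) and in 7.02% of 32851 promoter windows of the same length, and CTGGGA in 10 of 25 (40.0%) and in 27%. TTNNGCAA occurred in 3 of 25 (12%) and in 9.56%, and the NF-kappaB-like motif in 2 of 25 (8.0%) and in 17.6%. TTCCCAGAA, as in C7 and Masp2, satisfies the STAT motif and CTGGGA at once. The 4 STAT matches are shown in 29-base stretches because the genes that hold them had unlike fold changes.
C8a: aacaaaactcTTCACTGAActgattttag
C7: acagatatacTTCCCAGAAacatatctgt
Colec11: TTCGAAGAAaaagaaaagaaagcaaaaca
Masp2: catgggtagaTTCCCAGAAtccttggttt
These stretches lie at chr4:104876608-104876636, chr15:5063919-5063947 and chr12:28623552-28623580 on the minus strand and at chr4:148602481-148602509 on the plus strand. The log2 fold changes of these genes were −1.28 for C8a, 1.36 for C7, 0.10 for Colec11 and 0.12 for Masp2. A motif match describes letters in a window and was not tested as a binding site.

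In the classical arm, C4b had the largest fold change of the 4 genes. C4b encodes C4, which is cleaved by C1s or MASP2 to form part of the C3 convertase (GRCm38, chromosome 17, 34728380 to 34743882). It was at 358, 411, 406 and 402 CPM in knockouts 1 to 4, against 968, 757, 543 and 883 CPM in controls 1 to 4. Every knockout library lay below every control library, and the knockout libraries were close together. Its log2 fold change was −0.999 (SE 0.20, unadjusted p = 0.000414, adjusted p = 0.0820, edgeR). The close paralog C4a matched no row and is not analysed here, and how reads of both genes were divided is not given in the sources used here. C1ra, the C1r protease, was at 165, 192, 192 and 201 CPM in knockout, against 238, 206, 216 and 262 CPM in control. Its groups did not overlap, with a log2 fold change of −0.29 (SE 0.15, adjusted p = 0.411, edgeR). C1s1, the C1s protease, averaged 341 ± 14.3 CPM in knockout and 334 ± 33.5 CPM in control (SD, n = 4 each), a difference within the spread of either group. C2, which supplies the protease of the convertase, averaged 57.5 ± 4.11 CPM in knockout and 68.6 ± 18.8 CPM in control, with control 2 the lowest library at 44.0 CPM. The median of the 4 genes was −0.27, and 1 was lower at unadjusted p under 0.05, against 8.47% of all genes.

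The 3 tested genes of the alternative arm with its hub C3 were lower at an unadjusted p under 0.05 in edgeR, against 8.47% of all genes. C3, cleaved by every pathway, lies on chromosome 17 (57203970 to 57228136). It was at 4251, 2689.8, 3195 and 3059 CPM in knockouts 1 to 4, against 8517, 6933, 4065 and 6629.6 CPM in controls 1 to 4. The groups touched at knockout 1 and control 3, and the other libraries were separate. The log2 fold change was −0.99 (SE 0.25, unadjusted p = 0.00251, adjusted p = 0.174, edgeR). Without control 3 it was −1.16 (adjusted p = 0.0197) with groups that did not overlap. With each library left out it ran from −1.16 to −0.82. Over the 19 alternatives, each with its own test, the adjusted p of C3 ran from 0.00456 to 0.493. C3 alone took 0.249 to 0.435% of all counts in knockout and 0.382 to 1.02% in control. Cfb, the factor B protease of the alternative convertase, was at 859.6, 886, 832 and 875 CPM in knockout, against 1033, 1281, 988 and 1164 CPM in control. All knockout libraries lay within a narrow band under the controls. The log2 fold change of Cfb was −0.37 (SE 0.16, adjusted p = 0.341, edgeR). A readthrough gene, Gm20547, shares exons with both C2 and Cfb, so reads of these neighbours are uncertain in how they were divided.

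Properdin, encoded by Cfp, stabilises the alternative convertase and is made mainly by myeloid cells. It was at 6.39, 5.81, 6.56 and 6.97 CPM in knockouts 1 to 4, against 24.8, 39.8, 2.80 and 18.0 CPM in controls 1 to 4. Control 3 was the lowest of the 8 libraries and the other controls were the highest. The log2 fold change was −1.73 (SE 0.55, adjusted p = 0.240, edgeR), −2.09 without control 3 (adjusted p = 0.00328) and −0.70 in Y-positive libraries alone (adjusted p = 0.607). The 11 macrophage markers had the same order of controls, with control 3 lowest and control 2 highest, and their part in the value of Cfp was not tested. In bulk liver, fewer cells of a type and less RNA per cell cannot be told apart. Cfd, factor D, which cleaves factor B, held 0, 23, 14 and 10 counts in knockouts 1 to 4, against 0, 0, 2 and 0 in controls 1 to 4, too few to pass the filter. With no filter on low counts, and in DESeq2, it was tested and was the 1 gene of the arm higher at an unadjusted p under 0.05. A count of 0 allows up to 0.158 CPM in knockout 1 and 0.129 to 0.213 CPM in controls 1, 2 and 4, and these limits cover counting error only. Among adipocyte markers Adipoq, Lep and Plin1 were at 0 in all libraries, and Cidea was at 0, 2.36, 1.26 and 1.72 CPM in knockouts 1 to 4, against 0 to 0.142 CPM in controls. The part of these markers in the value of Cfd was not tested.

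**Figure D2:**
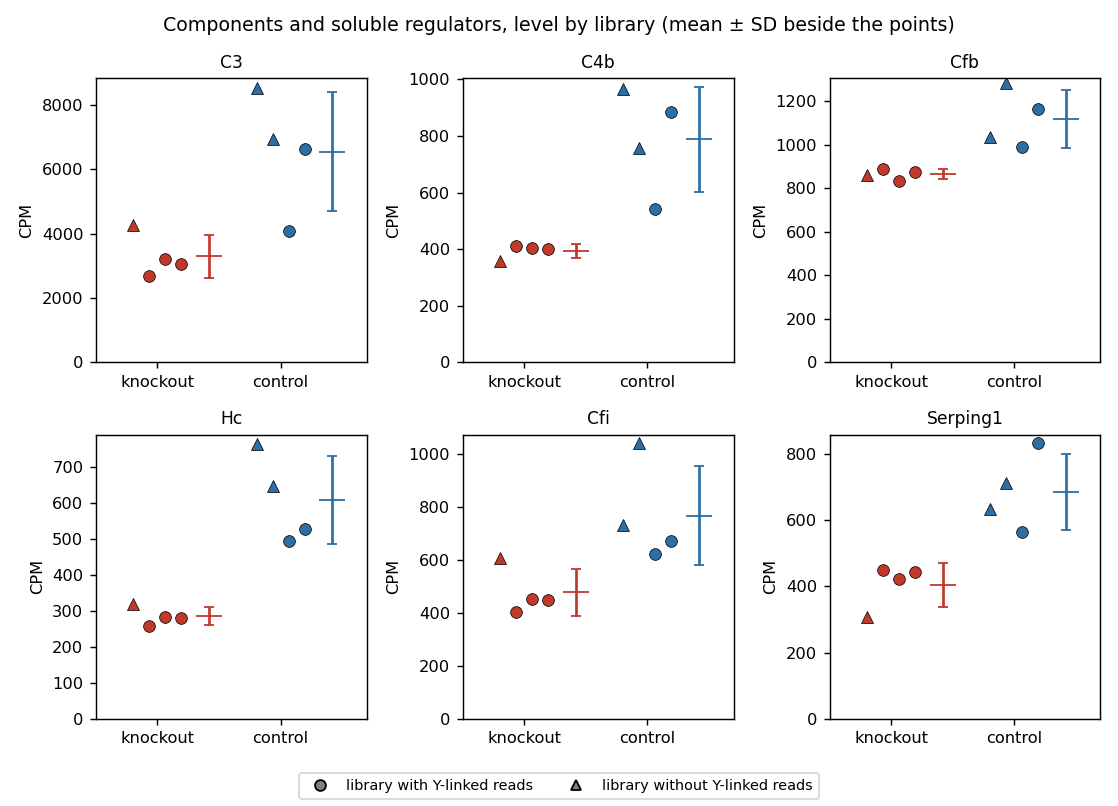
CPM (vertical axis, from 0) of C3, C4b, Cfb, Hc, Cfi and Serping1 in each of 4 knockout and 4 control libraries, with the mean and SD beside the points; circles are Y-positive libraries and triangles the others. The knockout libraries lie below all control libraries in each panel apart from C3, where knockout 1 (4251) exceeds control 3 (4065).

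Of the 31 tested complement genes, the terminal arm held the gene with the smallest p, Hc, and also the 1 that was higher at an unadjusted p under 0.05 in edgeR, C8g. Hc encodes C5, whose cleavage yields the anaphylatoxin C5a and starts the membrane attack complex (chromosome 2, 34983331 to 35061438). It was at 318, 257, 283 and 281 CPM in knockouts 1 to 4, against 765, 646, 495 and 528 CPM in controls 1 to 4. Each control library lay well above the highest knockout library. The log2 fold change was −1.10 (SE 0.18, unadjusted p = 0.000102, adjusted p = 0.0583, edgeR), a ratio of 0.468. In the model with a term for Y-linked reads the value was −0.99 (adjusted p = 0.0278), and in Y-positive libraries alone −0.90 (adjusted p = 0.0153). Its adjusted p was under 0.05 in 7 of 19 alternatives and over it in 12, with a range of 1.89e-06 in DESeq2 to 0.277 without knockout 4. Of the 8 left-out libraries, it passed without knockout 1 (adjusted p = 0.0429) and without control 3 (adjusted p = 0.00895), and not without any of the other 6.

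C8 is built of alpha, beta and gamma chains from separate genes, and the 3 genes differed. C8a, the pore-forming alpha chain, was at 63.6, 275, 235 and 258 CPM in knockouts 1 to 4, against 453, 410.3, 701 and 459 CPM in controls 1 to 4. The groups did not overlap, knockout 1 was far below the other knockouts and control 3 above the other controls. The log2 fold change was −1.28 (SE 0.39, unadjusted p = 0.00701, adjusted p = 0.223, edgeR). C8b, the beta chain on the neighbouring stretch of chromosome 4, was at 55.0, 149, 129 and 139.6 CPM in knockout, against 183, 72.2, 286 and 214 CPM in control. Control 2 lay among the knockouts, and the log2 fold change was −0.68 (SE 0.40, adjusted p = 0.462, edgeR). C8g encodes the gamma chain, a lipocalin covalently bound to the alpha chain. It was at 291, 307, 260.0 and 282 CPM in knockout, against 176, 151, 266 and 219.7 CPM in control. Control 3 reached into the knockout range and the other controls lay below it, with a log2 fold change of 0.49 (SE 0.19, unadjusted p = 0.0288, adjusted p = 0.308, edgeR).

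C9, which polymerises into the pore, was at 58.6, 208, 178 and 222 CPM in knockouts 1 to 4, against 378, 10.1, 467 and 328 CPM in controls 1 to 4. Control 2 was lowest of all libraries, and without that library the controls lay above all knockouts. C6, which joins C5b first, was at 2.96, 74.9, 62.0 and 66.8 CPM in knockouts, against 10.6, 10.9, 92.7 and 35.4 CPM in controls. The low libraries in both groups were those without Y-linked reads. C7, the next to join, held 11, 12, 12 and 21 counts in knockouts and 12, 8, 0 and 3 counts in controls. At 0.581 to 1.09 CPM in knockout, against 0 to 0.567 CPM in control, its groups did not overlap (log2 fold change 1.36, SE 0.68, adjusted p = 0.389, edgeR). A count of 0 allows up to 0.179 CPM in control 3.

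**Figure D3:**
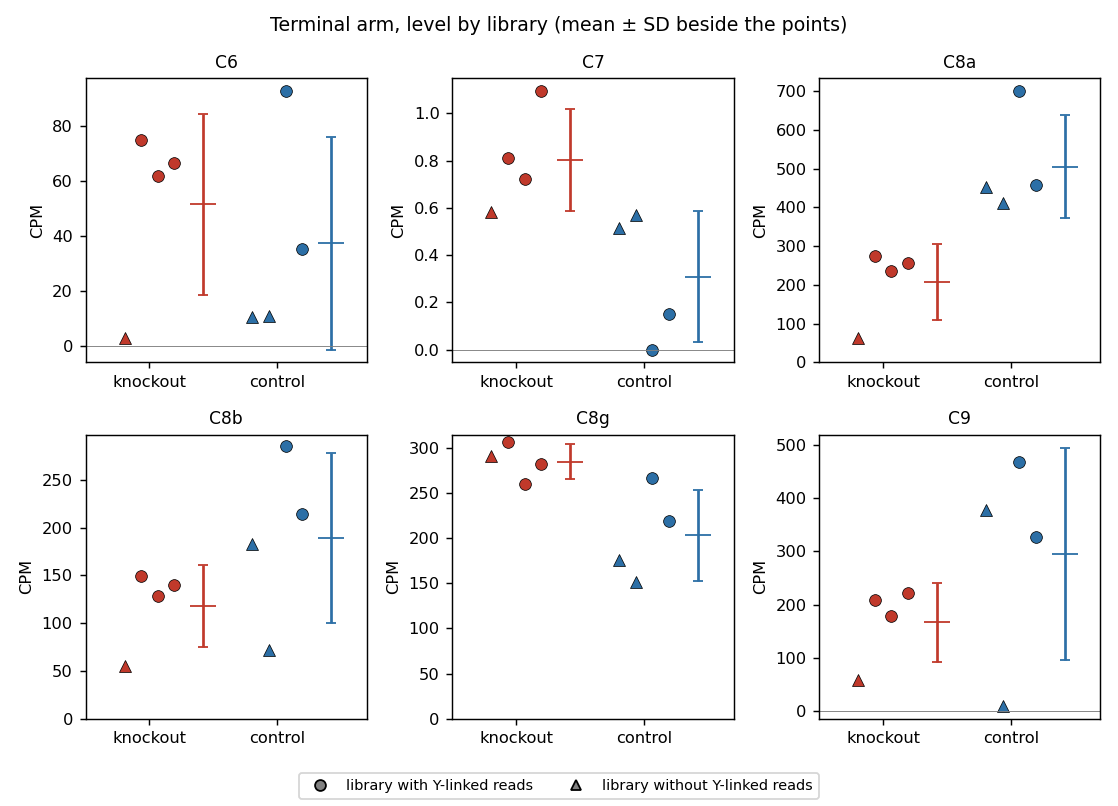
CPM (vertical axis) of C6, C7, C8a, C8b, C8g and C9 in each of 4 knockout and 4 control libraries, with the mean and SD beside the points; circles are Y-positive libraries and triangles the others. In C6 the triangles lie at 2.96 to 10.9 and the circles at 35.4 to 92.7 in either genotype, and in C8a, C8b and C9 the circles of knockout lie below the circles of control.

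Of the 7 terminal genes, C6 was the one whose libraries separated by Y-linked reads, and values within that division follow for the arm. In the fit with both terms, 2 of 31 genes passed for the coefficient of Y-linked reads at an adjusted p under 0.05, against 0.342% of all genes. At an unadjusted p under 0.05 in edgeR, 7 of the 31 were lower in Y-positive libraries and 5 were higher. The share over all genes at that threshold is not given here. C3 (−0.52), Hc (−0.36) and Cfi (−0.46) were among the lower, and C8a (1.04) and C8b (1.12) among the higher. C6 was higher in Y-positive libraries (log2 coefficient 3.25, SE 0.46, adjusted p = 0.0225, edgeR), at 35.4 to 92.7 CPM in 5 Y-positive libraries and 2.96 to 10.9 CPM in the other 3. Colec10 was lower in them (−0.91, SE 0.15, adjusted p = 0.0406), at 15.9 to 26.7 CPM against 33.8 to 46.0 CPM. Among Y-positive libraries alone, 3 knockout and 2 control, an alternative chosen after seeing the data, edgeR called 4 of 32 tested genes lower, all of the terminal arm, against 0.428% of all genes called lower. There 13 genes were lower and 3 higher at an unadjusted p under 0.05, against 8.27% and 7.21% of all genes, and 19 had groups that did not overlap, where 16.7% of all genes did so lower and 16.8% higher. The 4 genes called were Hc (−0.90, adjusted p = 0.0153), C8a (−1.18, adjusted p = 0.0325), C8b (−0.85, adjusted p = 0.0467) and C9 (−0.97, adjusted p = 0.0484). C6 stood at 0.09 there (adjusted p = 0.933), C8g at 0.22 (adjusted p = 0.482) and C7 at 3.34 (adjusted p = 0.158), beside 0.49 for C8g and 1.36 for C7 over all libraries. With 1 knockout and 2 control libraries, the others are given as values: Hc was at 318 CPM in knockout 1, against 765 and 646 CPM in controls 1 and 2, C8a at 63.6 CPM against 453 and 410.3 CPM, and C9 at 58.6 CPM against 378 and 10.1 CPM.

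Ratios between partner genes within a library do not depend on the scaling between libraries. Of 10 pairs listed, 9 had both genes tested. An exact two-sided permutation test over 70 assignments gave its smallest possible p of 0.0286 for 3 pairs, which after Benjamini-Hochberg adjustment over 9 pairs was 0.0858, so that 0 pairs passed 0.05. The log2 ratio of C8a to C8g was −2.19, −0.16, −0.14 and −0.13 in knockouts 1 to 4, against 1.36, 1.44, 1.40 and 1.06 in controls 1 to 4. C8a counts were thus below C8g counts in every knockout library and above them in every control library, a mean difference of −1.97. C8a has 3636 merged exon bases and C8g 1493, so the side of 0 depends on length, while the difference between groups does not. Per kilobase, C8a lay above C8g in controls 1 to 3 and below it in control 4 (126 against 147 CPM per kb). The log2 ratio of C8a to C8b was 0.21, 0.88, 0.87 and 0.88 in knockouts, against 1.31, 2.51, 1.29 and 1.10 in controls (difference −0.84). Control 2 was the highest of these, and without it the difference was −0.52. The log2 ratio of C1s1 to C1ra was 0.75 to 1.12 in knockouts, against 0.43 to 0.68 in controls (difference 0.33). The log2 ratio of Hc to C3 averaged −3.52 ± 0.16 in knockout and −3.40 ± 0.26 in control (SD, n = 4 each, difference −0.12, exact permutation p = 0.457). The other 5 pairs (Cfb to C2, Masp1 to Masp2, Mbl1 to Mbl2, C6 to C7 and Colec11 to Colec10) had exact p of 0.257 to 1.

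**Figure D4:**
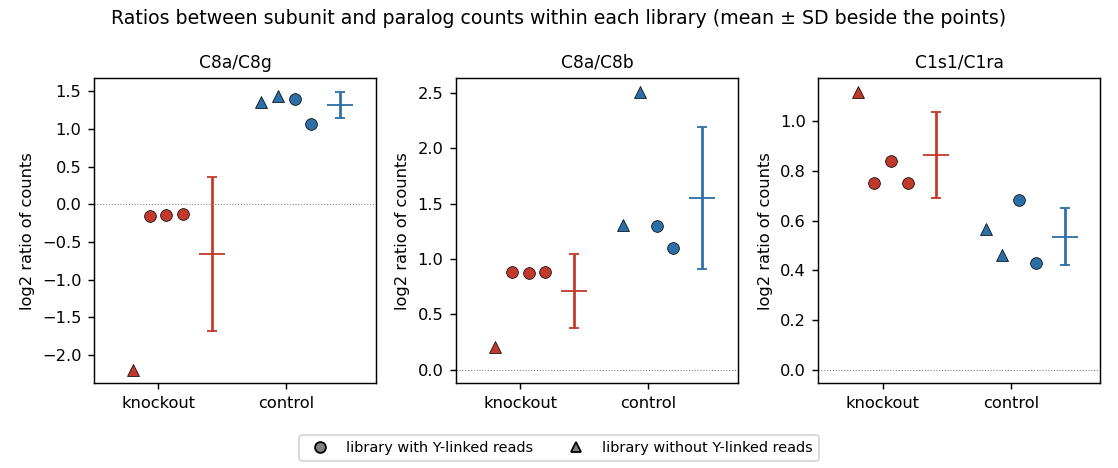
Log2 ratio of counts within each library (vertical axis) for C8a over C8g, C8a over C8b and C1s1 over C1ra in 4 knockout and 4 control libraries, with the mean and SD beside the points; circles are Y-positive libraries and triangles the others. The C8a to C8g ratio lies under 0 in all knockout libraries and at 1.06 to 1.44 in the controls, in counts not divided by exon length.

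Lectin pathway genes had 0 of 7 genes at an unadjusted p under 0.05 in either direction and a median of −0.10. Of all genes, 8.47% were lower and 5.55% higher at that threshold. Mbl2, mannose-binding lectin C, came nearest, at 358 ± 99.9 CPM in knockout and 544 ± 223 CPM in control (SD, n = 4 each; log2 fold change −0.60, SE 0.29, adjusted p = 0.374, edgeR). Knockout 1 (507 CPM) and control 2 (871 CPM) were the highest of their groups, and both lacked Y-linked reads. Mbl1, mannose-binding lectin A, averaged 232 ± 34.9 CPM in knockout and 253 ± 48.8 CPM in control. The lectin proteases Masp1 (101 ± 1.78 CPM in knockout, 108 ± 10.2 CPM in control) and Masp2 (144 ± 6.97 and 132 ± 22.9 CPM) differed by less than the spread of the controls. Masp2 shares 1817 exon bases with Tardbp on the other strand, and since the use of strand is not given in the sources used here, its counts are uncertain. The collectins Colec10 and Colec11 averaged 29.02 ± 11.6 and 24.1 ± 4.49 CPM in knockout, against 26.2 ± 9.08 and 22.5 ± 9.84 CPM in control. Fcna, ficolin A, which is made by macrophages, was at 21.2 to 24.6 CPM in knockouts, against 8.94 CPM in control 3, 45.7 CPM in control 2 and 16.7 to 25.9 CPM in the other controls. Its controls again followed the order of the macrophage markers in their lowest and highest library, and the part of those markers was not tested.

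Of the 5 soluble regulators, 2 were lower at an unadjusted p under 0.05, against 8.47% of all genes, and C4bp, Vtn and Clu did not pass. Serping1 encodes the C1 inhibitor, which inactivates C1r, C1s and the MASPs (chromosome 2, 84765387 to 84775444). It was at 307, 449, 422 and 442 CPM in knockouts 1 to 4, against 634, 711, 565 and 833 CPM in controls 1 to 4. No knockout library reached the lowest control, and the log2 fold change was −0.76 (SE 0.19, unadjusted p = 0.00235, adjusted p = 0.168, edgeR). Cfi, factor I, which degrades C3b and C4b, was at 605, 404, 451 and 446 CPM in knockouts, against 732, 1039, 622 and 671 CPM in controls. Knockout 1 lay just under control 3, with a log2 fold change of −0.68 (SE 0.21, unadjusted p = 0.00843, adjusted p = 0.229, edgeR). C4bp, the C4b-binding cofactor of factor I, averaged 621 ± 42.4 CPM in knockout and 763 ± 68.7 CPM in control (log2 fold change −0.30, SE 0.16, adjusted p = 0.419, edgeR). Vtn (vitronectin) and Clu (clusterin), which keep the membrane attack complex out of membranes, averaged 1516 ± 207 and 657 ± 145 CPM in knockout. In control they averaged 1822 ± 456 and 716 ± 121 CPM, within the spread of the libraries. Knockout 1 was the lowest library for both, at 1209 and 443 CPM.

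Membrane regulators and receptors were expressed at low levels. Cd59a, which blocks C9 insertion, averaged 45.4 ± 4.39 CPM in knockout and 41.9 ± 1.16 CPM in control, and Cr1l (Crry), the rodent C3 convertase regulator, 33.4 ± 0.852 and 33.2 ± 2.20 CPM. Cd55, the decay-accelerating factor, averaged 8.78 ± 3.59 CPM in knockout and 9.31 ± 3.27 CPM in control. The 3 libraries without Y-linked reads were highest for Cd55 (14.1 CPM in knockout 1, 13.9 and 9.29 CPM in controls 1 and 2). Cd46, whose mouse expression is largely confined to testis, averaged 1.36 ± 0.113 and 1.51 ± 0.967 CPM, and all 4 log2 fold changes of this group lay between −0.14 and 0.12. C3ar1, the C3a receptor of myeloid cells, was at 1.004, 0.676, 0.963 and 1.04 CPM in knockouts 1 to 4, against 2.24, 2.77, 0.298 and 1.30 CPM in controls 1 to 4 (log2 fold change −0.83, SE 0.54, adjusted p = 0.508, edgeR). Its direction turned in Y-positive libraries alone (0.14, adjusted p = 0.943), and without control 2 the value was −0.49. C5ar1, the C5a receptor, held 3, 6, 2 and 7 counts in knockouts, against 12, 10, 0 and 12 in controls. For both receptors control 3 was the lowest library and the other controls were above all knockouts.

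**Figure D5:**
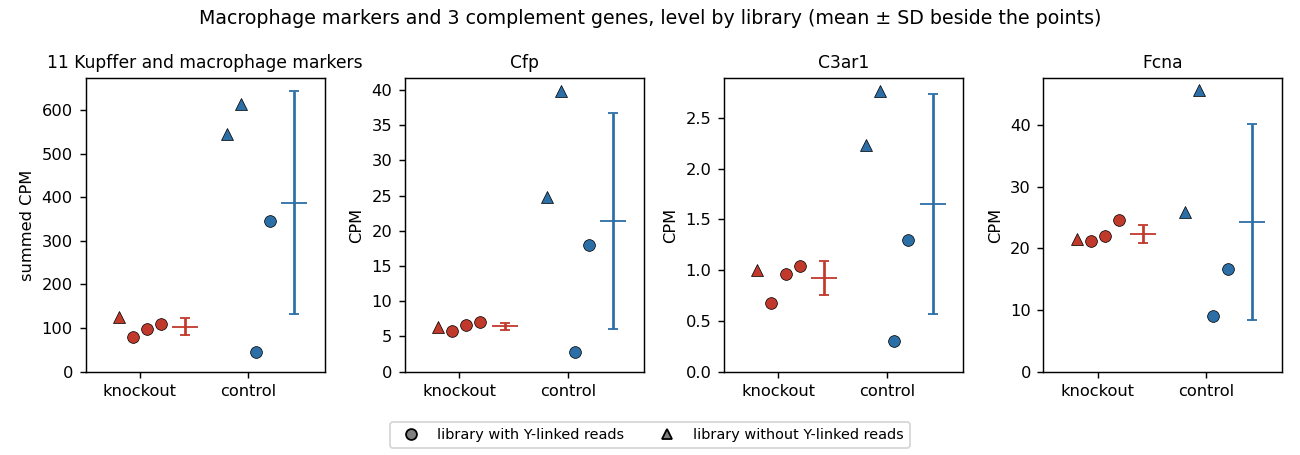
Summed CPM of 11 Kupffer cell and macrophage markers and CPM of Cfp, C3ar1 and Fcna (vertical axes, from 0) in each of 4 knockout and 4 control libraries, with the mean and SD beside the points; circles are Y-positive libraries and triangles the others. Control 3 is the lowest and control 2 the highest library in each of the 4 panels.

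Other genes of the system were taken from a list of 29 symbols, of which 26 had a row and 20 were tested. At an unadjusted p under 0.05, 7 were lower (35%) and 1 was higher, against 8.47% of all genes tested lower and 5.55% higher. Cpn2, a subunit of the carboxypeptidase that inactivates anaphylatoxins, was the gene of this list whose groups did not overlap, at 135 ± 13.99 CPM in knockout and 203 ± 11 CPM in control (log2 fold change −0.58, SE 0.15, adjusted p = 0.166, edgeR). Macrophage-derived C1qa, C1qb and C1qc, the chains of C1q, had log2 fold changes of −1.29, −1.51 and −1.36, Vsig4, a complement receptor of Kupffer cells, −1.79, and Itgax −0.95. C1qa was at 13.5 to 15.9 CPM in knockouts, against 7.45 CPM in control 3 and 33.5 to 62.2 CPM in the other controls. Susd4, a membrane inhibitor of convertases, had a log2 fold change of 1.59 (SE 0.67, adjusted p = 0.325), at 0.740 to 15.7 CPM in knockout and 1.99 to 5.84 CPM in control.

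Other secreted hepatocyte proteins are set beside complement as counts. Of the 24 tested acute-phase genes 21 were lower at an unadjusted p under 0.05 (median −1.11), and of 18 coagulation genes 4 were lower (median −0.22), beside 8 of 31 complement genes (median −0.26) and 8.47% of all genes tested. No test between these lists was made.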

How the data were processed

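Per the labels' protocols, Trizol RNA of frozen liver was read on the HiSeq X10 platform of Illumina. Per the submitters' processing notes, CASAVA 1.8, Bowtie and TopHat2 were used with GRCm38. How reads were counted (program, annotation, strand, filters) is not given in the sources used here. A single table was deposited by the authors, of estimated counts (expected counts, not normalized) for 22183 genes in 8 columns, each matched to 1 sample, with 94.2% whole numbers.

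Counts were rounded, filtered by filterByExpr and TMM-scaled. Genotypes were compared by the quasi-likelihood test of edgeR (edgeR 4.0.16, R 4.3.3) over 11692 genes with no covariate and Benjamini-Hochberg adjustment. Each SE is the fold change over the square root of its F. Coordinates and merged exon lengths are from GENCODE M21 (GRCm38), and promoters from RefSeq. Ratios used counts plus 1. DESeq2 1.42.0 and limma-voom (limma 3.58.1), other scalings and filters, a replicate block, a term for Y-linked reads and left-out libraries were alternatives. Tested on simulated data for this comparison (11692 genes), the script recovered 36% of 100 genes given a log2 change of 1 and 89% of 100 given 2, and 10 of its 135 calls were false.

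The genes, arms and lists were chosen with earlier results of these data known. Values in every library were given for members at an unadjusted p under 0.05 or with groups that did not overlap, and C6, C8b, C9, C3ar1, Cfd and C5ar1 were added after their values were seen. Of other complement genes, those at an unadjusted p under 0.05 were named, apart from a result that is not reported here. Promoters were to be shown for up to 6 genes with the smallest p among those lower and matched, and 3 are printed.

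Y-positive libraries alone, the coefficient of Y-linked reads and levels per kilobase were chosen after seeing the data. The smallest depth was 15998391 counts, and limits for counts of 0 (3 counts) cover counting error only.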

Additional observations from a re-analysis of the deposited data

Results flagged for a closer look

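In 7 of 62 groups of 4 libraries, 1 library lay far from the other 3, by Dixon's test at its 95% level, and chance flags about 1 in 20 groups. Knockout 1 was the library in 4 of them. It was low for Vtn (1209 CPM, against 1598 to 1659 CPM in the other knockouts), Clu (443 CPM, against 714 to 757 CPM) and C4b (358 CPM, against 402 to 411 CPM), and high for Mbl2 (507 CPM, against 299 to 322 CPM). It is the knockout library without Y-linked reads. Control 2 was low for C1s1 (284 CPM, against 347 to 353 CPM in the other controls). Control 3 was high for C8a (701 CPM, against 410.3 to 459 CPM). Control 4 was low for Cd59a (40.1 CPM, against 42.4 to 42.5 CPM).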

How the results depend on the processing

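All 11 genes with an unadjusted p under 0.05 or groups that did not overlap kept their direction under each alternative that gave a value. These genes were picked by their values in the same libraries, so a kept direction was largely fixed by that choice and is no separate support. The count at an adjusted p under 0.05, 0 in edgeR with all libraries, was 5 in DESeq2, 1 with no filter on low counts, 1 with Y-linked reads as a term, 4 without controls 2 and 3, 4 in Y-positive libraries alone, and 0 to 4 with each library left out. The shares of all genes called, in the same order, were 0.0342%, 1.72%, 0.382%, 0.231%, 1.54%, 1.05%, and 0 to 2.72%. The count lower at an unadjusted p (8) was 13 in Y-positive libraries alone and 7 to 11 with each library left out. Of all genes, 8.27% were lower in Y-positive libraries alone and 5.2% to 11.8% with each library left out. The count higher (1) was 0 with library totals only, 2 with no filter, in DESeq2, in limma-voom and without controls 2 and 3, 3 with Y-linked reads as a term and in Y-positive libraries alone, and 0 to 1 with each library left out. The shares of all genes higher, in the same order, were 3.22%, 5.35%, 5.34%, 6.24%, 8.03%, 5.6%, 7.21%, and 3.2% to 9.3%. The count of groups that did not overlap (8) was 17 without controls 2 and 3, 19 in Y-positive libraries alone, where fewer libraries make it easier, and 8 to 13 with each library left out. All genes rose too: without controls 2 and 3, 1825 lower and 1398 higher of 12148 did not overlap. In Y-positive libraries alone 16.7% did so lower and 16.8% higher. With each library left out 510 to 1222 genes did so lower and 470 to 1156 higher, beside 451 and 377 with all libraries. The median log2 fold change (−0.26) was −0.14 in limma-voom and −0.30 to −0.20 with each library left out. Ratios that changed sign were those near 0: without controls 2 and 3, Cfb to C2 (0.13) and Hc to C3 (0.046); without control 2, Cfb to C2 (0.12, in a range of −0.27 to 0.12 with each library left out); and Colec11 to Colec10 without knockout 2 (−0.01), knockout 3 (−0.0022), control 1 (−0.061) or control 3 (−0.06), in a range of −0.061 to 0.20. The causes of these changes were not tested.

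The replicate number as a block gave 0 calls among 31 members, 7 lower at an unadjusted p and a value of −1.08 for Hc (adjusted p = 0.107). Over all genes the block gave 0 calls and 8.19% lower at an unadjusted p. Same-numbered libraries correlated at 0.34, −0.26, 0.09 and 0.23 in their deviations from the group means, and differently numbered ones at −0.36 to 0.42. So few values cannot show whether same-numbered samples shared more than a number, and the labels do not say. Values under 1 CPM, as for C7, Cfd and C5ar1, rest on few counts.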
